A study of Homo sapiens with 19 samples.

Results

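The 39 genes described here are nuclear genes for subunits of succinate dehydrogenase (complex II), cytochrome bc1 (complex III), cytochrome c oxidase (complex IV) and ATP synthase (complex V). They were chosen by symbol with no cut on measured values, though with earlier results of these data known. All 39 were found among the 58051 human genes of the count tables. Complex II has 4 of them, complex III 9, complex IV 11 and complex V 15. RNA came from K562, an established human erythroleukaemia line grown without treatment, so every value below is from one line in culture. Whole cells, cytoplasm, nuclear wash and nucleus were sequenced in 4 libraries each after removal of rRNA, and the nuclear wash again in 3 libraries in which rRNA was kept. The labels do not say how the fractions were separated, what the wash was made with, or whether replicates were separate cultures. The p-values thus set a difference only against the scatter between these libraries, and that scatter may be technical.

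Complex II feeds electrons from succinate into the ubiquinone pool, complex III passes them to cytochrome c, complex IV hands them to oxygen, and complex V uses the resulting proton gradient to make ATP. Complex II is built from nuclear genes alone. Complexes III, IV and V also hold subunits encoded in mitochondrial DNA, so their parts come from mRNAs translated on different ribosomes. Transcripts of the nuclear subunit genes are made and spliced in the nucleus, translated on cytosolic ribosomes, some of them at the mitochondrial surface, and their proteins are imported into mitochondria.

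Subunit c forms the rotating ring of ATP synthase. The genes ATP5MC1 (chr17:48892765-48895871, GRCh38, plus strand), ATP5MC2 (chr12:53632726-53677408, minus strand) and ATP5MC3 (chr2:175176258-175184607, minus strand) all encode it, each with its own import signal in front. Their coding sequences, taken from GENCODE release 29 on GRCh38, end in 77 codons that translate alike. Those 231 bases are shown because the 3 mRNAs make the same protein there and still differ at 57 positions, which can tell their reads apart. Capitals mark the positions at which the 3 genes are not all the same.
ATP5MC1: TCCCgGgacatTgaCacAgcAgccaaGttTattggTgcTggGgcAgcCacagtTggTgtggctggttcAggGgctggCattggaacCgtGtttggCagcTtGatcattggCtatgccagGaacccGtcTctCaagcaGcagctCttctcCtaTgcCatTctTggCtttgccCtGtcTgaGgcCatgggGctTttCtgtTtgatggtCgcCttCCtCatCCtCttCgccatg
ATP5MC2: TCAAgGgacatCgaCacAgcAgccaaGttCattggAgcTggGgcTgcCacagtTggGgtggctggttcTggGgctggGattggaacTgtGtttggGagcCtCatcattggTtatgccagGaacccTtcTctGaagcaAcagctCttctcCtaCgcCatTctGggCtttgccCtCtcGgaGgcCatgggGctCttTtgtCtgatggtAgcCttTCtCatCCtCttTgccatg
ATP5MC3: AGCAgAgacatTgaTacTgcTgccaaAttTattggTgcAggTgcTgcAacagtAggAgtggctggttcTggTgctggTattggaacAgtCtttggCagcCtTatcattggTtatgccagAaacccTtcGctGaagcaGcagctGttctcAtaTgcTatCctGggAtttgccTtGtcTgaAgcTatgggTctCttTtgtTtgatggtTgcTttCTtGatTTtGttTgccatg
ATP5MC1 and ATP5MC2 share 88.3% of these bases, and each shares 80.1% with ATP5MC3. The longest run without a difference is 17 bases between ATP5MC1 and ATP5MC2, 17 between ATP5MC2 and ATP5MC3, and 11 between ATP5MC1 and ATP5MC3.

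Exon counts numbered 1373755 to 7955415 in a depleted library and 923464 to 1801293 in an undepleted one, of which the 39 genes took 2844 to 35732 per library. The nucleus had the fewest exon counts on the members, 2844 to 5585 per library. MALAT1, a nuclear noncoding RNA, was higher in the nucleus than in the cytoplasm by 4.24 on the log2 scale, and the glycolytic mRNA of GAPDH fell by 3.79. All 10 erythroid markers of K562 averaged at least 1 CPM (a count relative to the scaled library total, the unit of all levels below) in each fraction, and their summed level was 1390 to 5562 CPM per library. Of 18 markers of lymphoid, myeloid, epithelial, fibroblast and endothelial cells, 7 to 9 averaged at least 1 CPM in a fraction and 2 to 4 had no count in any of its libraries. Their sum was 196.6 to 212.0 CPM in the nucleus, 417.6 to 488.6 in whole cells, 646.0 to 830.1 in the cytoplasm and 768.2 to 1190 in the wash, and their part in the results was not tested.

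The nucleus was compared with the cytoplasm first. Of the 39 genes, 36 were lower in the nucleus and 1, SDHA, was higher (but lower with gene-body counts or spike-in scaling), while COX6A1 and ATP5MF passed in neither direction. ATP5MF, the f subunit of ATP synthase, was lower (-0.48, adjusted p = 0.0495 by edgeR) once same-numbered libraries were treated as a replicate block, and without cytoplasm replicate 1 or 2. Its cytoplasmic libraries were at 24.6, 25.1, 55.7 and 56.5 CPM and its nuclear ones at 26.9, 31.6, 26.1 and 27.5, and the difference was 0.24 within the libraries of column prefix 1 (replicates 1 and 2, adjusted p = 0.526) and -1.07 within those of prefix 2 (adjusted p = 4.58e-06 by edgeR). Over all 15940 genes tested, 37.5% were called lower and 39.3% higher, at a Benjamini-Hochberg adjusted p under 0.05 in the quasi-likelihood test of edgeR. The median log2 fold change was -1.87 over the members and 0.03 over all genes. Libraries of nucleus and cytoplasm did not overlap for 37 members. How often libraries did not overlap over all genes was not counted in this or the later comparisons. With spike-in scaling 38 members were lower and 0 higher, against 50.9% and 27.1% of all genes. Without a composition factor 31 were lower and 1 higher, against 23.5% and 53.6%. All 9 genes of complex III were lower (median -1.87), 10 of 11 of complex IV (-1.89), 14 of 15 of complex V (-1.82) and 3 of 4 of complex II (-1.47). Scaling sets the typical gene to no change, and in bulk fractions like these a smaller part of the cells' RNA and less RNA of a gene per cell cannot be told apart.

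**Figure D1:**
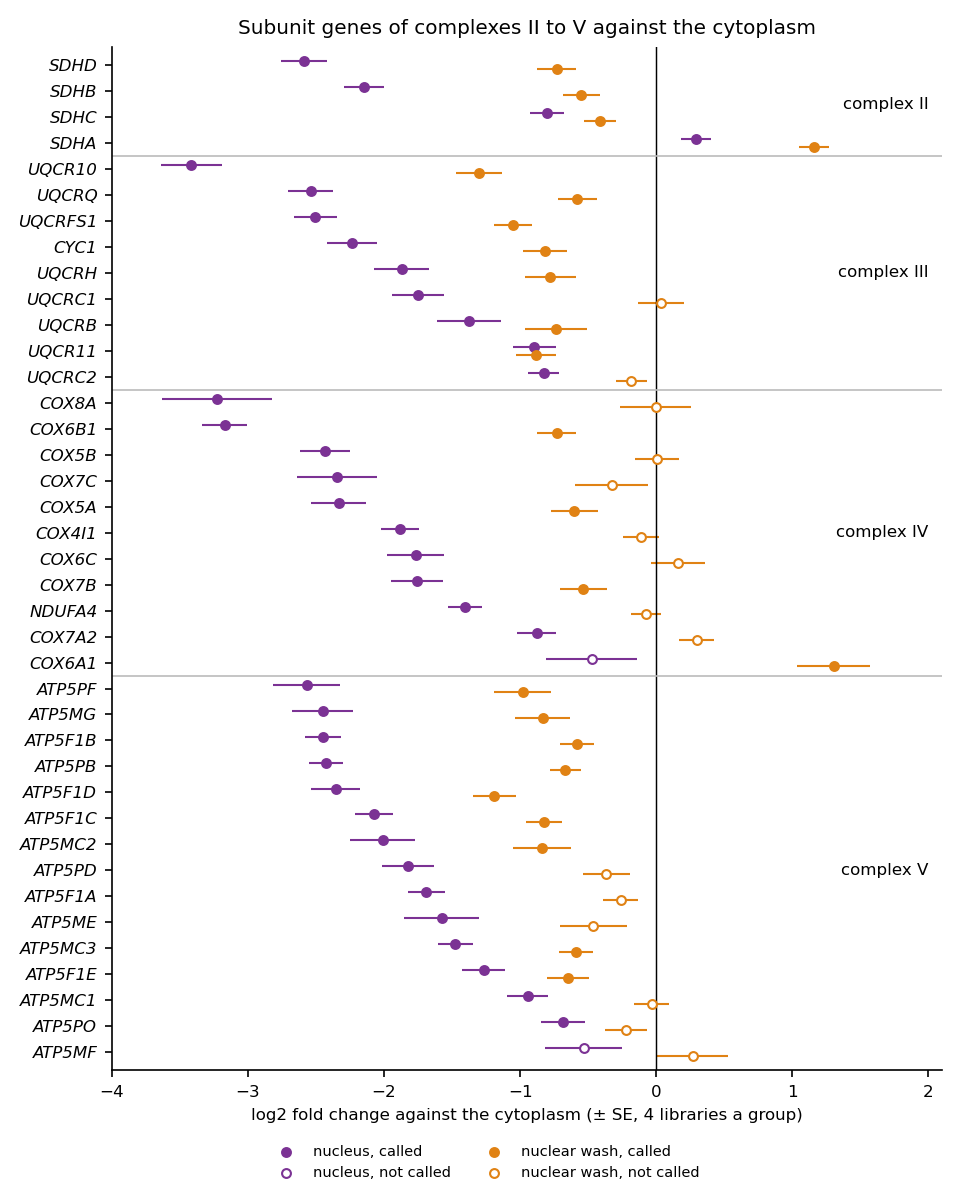
Log2 fold change of each of the 39 genes in the nucleus (purple) and the nuclear wash (orange) against the cytoplasm, grouped by complex, with bars for the standard error and 4 libraries in each group. Filled points passed an adjusted p under 0.05 in edgeR's quasi-likelihood test: 36 genes lie lower and SDHA higher in the nucleus, and 22 lie lower and SDHA and COX6A1 higher in the wash. Both higher calls in the wash turn lower when libraries are scaled by spike-ins, under which 93.3% of all genes are called lower.

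The largest decreases in the nucleus were those of UQCR10, COX8A and COX6B1, small subunits of complexes III and IV. UQCR10 (chr22:29767369-29770413), a small membrane subunit of complex III, stood at 30.9, 36.1, 31.3 and 42.2 CPM in cytoplasm replicates 1 to 4 and at 4.03, 4.12, 2.45 and 2.59 CPM in the nucleus. Every nuclear library lay below every cytoplasmic one, and the fitted change left 9.37% of the cytoplasmic level (log2 fold change -3.42, SE 0.226, adjusted p = 2.07e-11 by edgeR). COX6B1 (chr19:35648223-35658861), which sits on the intermembrane side where complex IV dimerises, was at 214, 184, 211 and 158 CPM in the cytoplasm and 19.7, 20.3, 22.6 and 22.3 CPM in the nucleus. Its libraries did not overlap either (log2 fold change -3.17, SE 0.167, adjusted p = 8.08e-13 by edgeR). COX8A, the ubiquitous form of the smallest complex IV subunit, was at 13.5, 11.2, 13.4 and 14.8 against 1.34, 1.72, 1.63 and 0.519 CPM (log2 fold change -3.23, SE 0.407, adjusted p = 3.43e-07 by edgeR). Only 15 reads in all 4 nuclear libraries lay behind the nuclear value of COX8A, so its size is known less well than that of UQCR10 or COX6B1.

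Several of the larger subunits fixed for description were lower in the nucleus as well. ATP5F1B (chr12:56638175-56646068), the beta subunit with the catalytic sites of ATP synthase, was at 710.1, 682, 746 and 707 CPM in the cytoplasm and 130.5, 119.6, 145 and 126 in the nucleus (log2 fold change -2.45, SE 0.133, adjusted p = 1.19e-12 by edgeR). ATP5F1A, the alpha subunit that alternates with it in the same ring, was at 345, 291, 388 and 302 against 87.0, 95.2, 119 and 109 CPM (log2 fold change -1.69, SE 0.137, adjusted p = 4.28e-10 by edgeR). In neither gene did the libraries overlap. UQCRFS1, the Rieske iron-sulfur protein, was at 76.2, 80.6, 88.8 and 95.4 CPM in the cytoplasm and 16.6, 11.0, 15.5 and 17.6 in the nucleus, and kept 17.6% of its cytoplasmic level in the nucleus (log2 fold change -2.50, SE 0.158, adjusted p = 1.02e-11 by edgeR). CYC1, cytochrome c1, was at 86.1, 87.5, 89.1 and 74.5 against 18.8, 15.8, 19.6 and 17.1 CPM and kept 21.2% (log2 fold change -2.24, SE 0.185, adjusted p = 6.46e-10 by edgeR). COX4I1, a regulatory subunit of complex IV, was at 259.6, 262, 306 and 295 against 73.1, 70.4, 78.3 and 82.0 CPM and kept 27.1% (log2 fold change -1.89, SE 0.140, adjusted p = 1.19e-10 by edgeR). These percentages come from the fitted log2 fold changes over 4 libraries a group, and none of these 3 genes overlapped. Among the members called lower, the smallest decreases were those of ATP5PO (fell by 0.68), SDHC (by 0.80), UQCRC2 (by 0.83), COX7A2 (by 0.88) and UQCR11 (by 0.90 on the log2 scale), and without a composition factor none of these 5 passed.

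Within complex II the 4 genes went different ways. SDHA (chr5:218241-256700, plus strand) encodes the flavoprotein that oxidises succinate, SDHB the iron-sulfur subunit, and SDHC and SDHD the membrane anchor that binds haem and ubiquinone. SDHA was at 133, 137, 144 and 157 CPM in whole cells, 126, 129.9, 129.9 and 151 in the cytoplasm, 261, 287, 343 and 308 in the wash and 167, 173, 161 and 156 in the nucleus. All nuclear libraries were above all cytoplasmic ones, by a small margin (log2 fold change 0.29, SE 0.111, adjusted p = 0.0221 by edgeR). That call was lost without cytoplasm replicate 1, 2 or 3 (adjusted p = 0.0629, 0.0894 and 0.0898 by edgeR), without the filter on low counts, and with replicates 3 and 4 alone. With gene-body counts SDHA was lower in the nucleus, by 0.34 (adjusted p = 0.00554 by edgeR), as it was, without passing, with spike-in scaling. The 4 annotated pseudogenes of SDHA held counts equal to 16.8% of those of SDHA in the cytoplasm, 11.2% in the wash and 51.4% in the nucleus. Reads shared between SDHA and its pseudogenes could be split between them by the counting, so its level is uncertain.

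SDHB was at 158, 132, 151 and 153 CPM in the cytoplasm and 33.6, 35.1, 31.3 and 34.2 in the nucleus (log2 fold change -2.15, SE 0.149, adjusted p = 4.36e-11 by edgeR). SDHD was at 106, 96.1, 98.0 and 88.7 against 14.8, 19.2, 14.4 and 16.1 CPM (log2 fold change -2.59, SE 0.166, adjusted p = 1.27e-11 by edgeR). SDHC was at 79.9, 76.5, 73.4 and 63.7 against 44.4, 38.1, 46.5 and 38.9 CPM (log2 fold change -0.80, SE 0.124, adjusted p = 5.59e-06 by edgeR). For each of the 3 the nuclear libraries lay below the cytoplasmic ones, and the decrease of SDHC was the smallest of them.

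**Figure D2:**
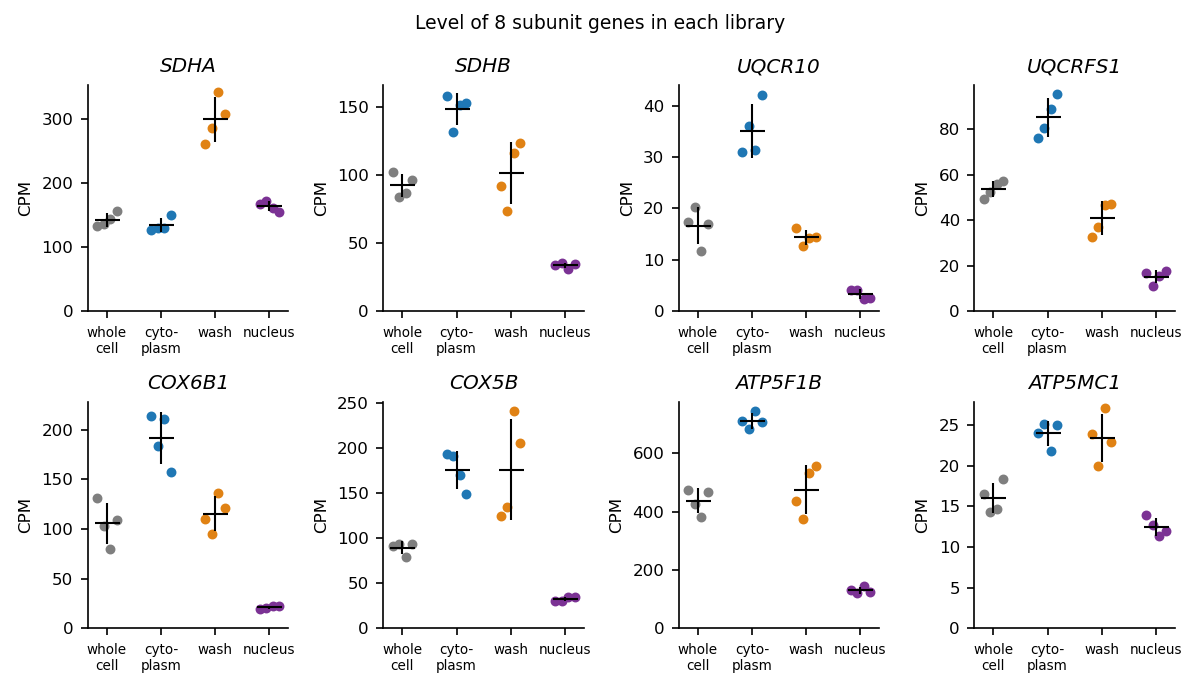
CPM of 8 subunit genes in each library of whole cells, cytoplasm, nuclear wash and nucleus, with points for libraries, a dash for the mean and a bar for the SD of 4 libraries. SDHA is highest in the wash (260.8 to 343.3 CPM), COX5B splits the wash libraries into 124.4 and 133.9 against 204.7 and 240.4 CPM, and every gene shown but SDHA is lowest in the nucleus.

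Of the 3 genes of subunit c, ATP5MC1 had the smallest decrease in exon counts. ATP5MC1 was at 24.0, 25.2, 21.8 and 25.0 CPM in the cytoplasm, 23.9, 19.9, 27.1 and 22.9 in the wash and 13.9, 12.7, 11.4 and 11.9 in the nucleus. ATP5MC2 was at 58.3, 61.4, 73.5 and 79.6 CPM in the cytoplasm, 21.7, 30.0, 48.1 and 50.9 in the wash and 10.3, 16.2, 21.2 and 19.2 in the nucleus. ATP5MC3 was at 169, 169.7, 174 and 153 CPM in the cytoplasm, 87.9, 100.1, 126 and 127 in the wash and 60.5, 65.0, 60.1 and 53.4 in the nucleus. In all 3 genes the nucleus lay below the cytoplasm in every library, while ATP5MC1 overlapped between wash and cytoplasm. From cytoplasm to nucleus, ATP5MC1 fell by 0.95, ATP5MC3 by 1.48 and ATP5MC2 by 2.01 on the log2 scale (adjusted p = 6.9e-06, 1.4e-09 and 1.52e-07 by edgeR). In the wash ATP5MC2 and ATP5MC3 were lower than in the cytoplasm, by 0.84 and 0.59 (adjusted p = 0.00299 and 0.000557 by edgeR), while ATP5MC1 was called in neither direction (-0.03, SE 0.132, adjusted p = 0.853).

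A ratio of 2 genes within a library does not depend on how libraries are scaled. The log2 ratio of ATP5MC1 to ATP5MC2 exon counts was -1.28, -1.29, -1.76 and -1.67 in the cytoplasm, 0.14, -0.59, -0.83 and -1.15 in the wash, and 0.43, -0.35, -0.89 and -0.69 in the nucleus. Every nuclear and every wash library lay above every cytoplasmic one. The mean was higher by 1.13 in the nucleus and by 0.89 in the wash (two-sided exact permutation test over 4 libraries against 4, p = 0.0286 each, the smallest this design allows, adjusted p = 0.0429 over 6 ratios). The ratio of ATP5MC1 to ATP5MC3 was also higher than in the cytoplasm, by 0.54 in the nucleus and 0.57 in the wash (exact permutation test, adjusted p = 0.0429 each). Between ATP5MC2 and ATP5MC3 the ratio differed by -0.59 and -0.32 with overlapping libraries (exact permutation test, adjusted p = 0.137 and 0.229). When same-numbered libraries were taken as pairs, the exact p was 0.125 for each of the first 4 differences, the smallest that 4 pairs can give. With gene-body counts, which include introns, the ratio of ATP5MC1 to ATP5MC2 was lower in the nucleus, by 1.21. Counts outside exons made up 82.2% of the nuclear gene-body counts of ATP5MC2, 6.01% of those of ATP5MC1 and 17.3% of those of ATP5MC3. Annotated exons, merged over isoforms, fill 84.2% of the span of ATP5MC1, 81.2% of ATP5MC3 and 8.93% of ATP5MC2. Exon counts thus take in most of the first 2 genes but little of ATP5MC2, and the part of this in the ratios was not tested.

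**Figure D3:**
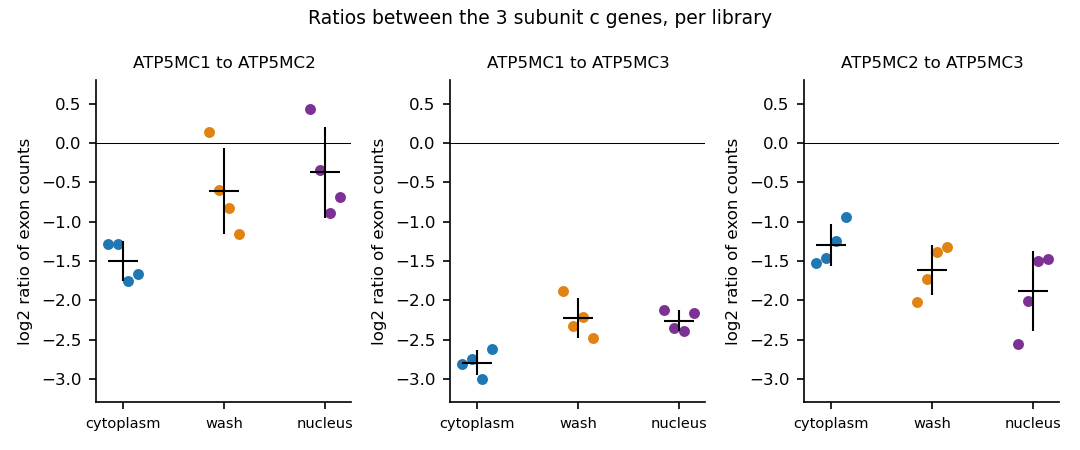
Log2 ratio of exon counts between each pair of subunit c genes in the libraries of cytoplasm, wash and nucleus, with a dash for the mean and a bar for the SD of 4 libraries. The ratios of ATP5MC1 to ATP5MC2 and of ATP5MC1 to ATP5MC3 lie lower in every cytoplasmic library than in any other library shown, and those of ATP5MC2 to ATP5MC3 overlap.

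In the nuclear wash 22 members were lower than in the cytoplasm, 2 were higher (SDHA and COX6A1, both lower with spike-in scaling) and 15 passed in neither direction. With same-numbered libraries as a replicate block, ATP5ME (-0.51, adjusted p = 0.0306) and ATP5PD (-0.38, adjusted p = 0.0209) were also lower and COX7A2 (0.30, adjusted p = 0.0436 by edgeR) was also higher. Over all genes tested 21.4% were called lower and 22.8% higher. The median was -0.55 over the members and 0.05 over all genes, and libraries did not overlap for 21 members (not counted over all genes). By complex, 7 of 9 genes were lower in complex III (median -0.78), 9 of 15 in complex V (-0.59), 3 of 4 in complex II (-0.48) and 3 of 11 in complex IV (-0.08). The 3 of complex IV were COX5A (fell by 0.60), COX6B1 (by 0.73) and COX7B (by 0.54 on the log2 scale), and the last missed the threshold without wash replicate 2 or cytoplasm replicate 4. A difference between complexes was not tested. With libraries scaled by spike-ins all 39 members were lower, but so were 93.3% of all genes, with 0.0188% higher, and the median gene fell by 3.10.

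The largest decreases in the wash were those of UQCR10, ATP5F1D and UQCRFS1. UQCR10 was at 16.2, 12.6, 14.3 and 14.5 CPM in the wash, below the lowest cytoplasmic library (log2 fold change -1.30, SE 0.168, adjusted p = 3.1e-06 by edgeR). ATP5F1D, the delta subunit in the central stalk of ATP synthase, was at 71.0, 68.9, 50.4 and 45.4 CPM in the cytoplasm and 22.1, 23.0, 28.7 and 28.8 in the wash (log2 fold change -1.19, SE 0.158, adjusted p = 4.36e-06 by edgeR). UQCRFS1 was at 32.4, 37.0, 46.7 and 47.2 CPM in the wash (log2 fold change -1.05, SE 0.137, adjusted p = 3.35e-06 by edgeR). None of these 3 overlapped between the fractions. ATP5F1B fell by 0.58 and CYC1 by 0.82 (adjusted p = 0.000772 and 0.000388 by edgeR). COX4I1 (-0.11, adjusted p = 0.507) and ATP5F1A (-0.26, adjusted p = 0.109) were called in neither direction by edgeR.

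SDHA rose in the wash, to 224% of its cytoplasmic level by the fit (log2 fold change 1.16, SE 0.110, adjusted p = 5.71e-08 by edgeR), although spike-in scaling turned this to -2.02, with the median of all genes at -3.10. Each wash library was above each library of the other depleted fractions. SDHB, SDHC and SDHD fell by 0.55, 0.41 and 0.73 (adjusted p = 0.00240, 0.00761 and 0.000305 by edgeR), and the call of SDHC was lost without the filter on low counts and within replicates 3 and 4 alone. In the wash the libraries of SDHB were at 91.6, 73.8, 116 and 123, those of SDHC at 49.3, 56.2, 58.5 and 55.8 and those of SDHD at 42.7, 50.6, 71.2 and 68.1 CPM. The coding sequence of SDHA, with 664 codons, is the longest among the members. Across the 39 members, though, the log2 fold change in the wash and the coding length had a Spearman rho of only 0.03. Across 11311 coding genes tested it was 0.36. COX6A1, the ubiquitous form of a peripheral complex IV subunit, was at 6.15, 7.30, 5.59 and 8.59 CPM in the cytoplasm and 22.8, 8.56, 20.3 and 18.2 in the wash, with overlap (log2 fold change 1.30, SE 0.269, adjusted p = 0.000549 by edgeR). It had 175 reads over the cytoplasmic libraries and 320 over those of the wash, and its 7 annotated pseudogenes had 198 and 516. The value of COX6A1 is therefore uncertain.

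Replicates 1 and 2, whose columns carry the prefix 1, and replicates 3 and 4, with the prefix 2, gave 23 members lower each in the wash when fitted alone, and 3 and 4 higher. Over all genes these fits called 3119 lower and 2965 higher of 15345 for prefix 1, and 3216 and 3172 of 16893 for prefix 2. ATP5MF was among the 3 members higher within prefix 1, at 0.96 (adjusted p = 0.019), and was at -0.21 within prefix 2 (adjusted p = 0.299 by edgeR). COX5B, a subunit on the matrix side of complex IV that binds zinc, went opposite ways. It was at 193, 191, 169.6 and 149 CPM in the cytoplasm and 124, 134, 240.4 and 205 in the wash, so that wash replicates 1 and 2 were below their cytoplasm and 3 and 4 above. Its log2 fold change by edgeR was 0.01 over all libraries (adjusted p = 0.981), -0.57 within prefix 1 (adjusted p = 0.00218) and 0.48 within prefix 2 (adjusted p = 0.0026 by edgeR). What the prefix stands for is not given in the sources used here. COX7C, a small membrane subunit of complex IV, was not called (-0.33, adjusted p = 0.332), and 1 wash library decided that. It was at 197, 186, 192 and 330.1 CPM in the cytoplasm and 332, 101, 153 and 140.1 in the wash, and without wash replicate 1 it was lower by 0.79 (adjusted p = 0.00454 by edgeR).

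Against the nucleus, 38 of the 39 members were higher in the wash, where 36.7% of all genes tested were called higher and 35.4% lower, but with spike-in scaling 34 were called lower, as were 93.5% of all genes, with 0.119% higher. The median was 1.43 over the members and 0.06 over all genes. With spike-in scaling these were -1.14 and -2.47, and without any composition factor 26 members were called higher and 1 lower, against 17.9% and 52.8% of all genes. The largest increases were those of COX8A (log2 fold change 3.22, SE 0.411, adjusted p = 6.55e-07 by edgeR), COX5B (log2 fold change 2.44, SE 0.183, adjusted p = 4.09e-10 by edgeR) and COX6B1 (log2 fold change 2.44, SE 0.166, adjusted p = 1.09e-10 by edgeR), all of complex IV, of which COX5B and COX6B1 were at -0.15 and -0.13 with spike-in scaling. COX5B was at 30.0, 30.6, 34.3 and 34.8 CPM in the nucleus, below each of its wash libraries, and COX8A and COX6B1 did not overlap either. UQCR11, another small subunit of complex III, was the exception, at 7.73, 8.09, 7.13 and 7.98 CPM in the wash and 8.07, 7.90, 8.16 and 6.23 in the nucleus (log2 fold change 0.01, SE 0.17, adjusted p = 0.99 by edgeR). Libraries did not overlap for 35 members (not counted over all genes). This comparison and both against the cytoplasm share libraries, so their values are not independent.

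In the cytoplasm 30 members were higher than in whole cells and 0 were lower by edgeR, against 22.3% and 27.6% of all genes tested, while spike-in scaling gave 0 higher and 32 lower, against 0% and 92.2% of all genes. With the replicate block ATP5PD, COX8A, UQCRB and UQCRC2 were higher too. At an unadjusted p under 0.05 the count of members lower was 0, and DESeq2 called 0 lower. The median was 0.62 over the members and -0.00 over all genes, and with spike-in scaling -0.62 and -1.24. UQCR10, COX7C and COX5B rose most, but were at -0.16, -0.27 and -0.25 with spike-in scaling. UQCR10 was at 17.3, 20.3, 11.7 and 17.1 CPM in whole cells (log2 fold change 1.09, SE 0.167, adjusted p = 2.53e-05 by edgeR), COX7C at 128, 115, 104 and 109 (log2 fold change 0.99, SE 0.270, adjusted p = 0.00458 by edgeR) and COX5B at 91.5, 93.7, 78.6 and 93.3 (log2 fold change 0.98, SE 0.167, adjusted p = 8.03e-05 by edgeR). Whole-cell and cytoplasmic libraries did not overlap for these 3, nor for 27 members in all (not counted over all genes). Within prefix 1 the difference of COX7C was 0.66 and missed the threshold (adjusted p = 0.131 by edgeR). SDHA did not differ detectably between them (-0.09, SE 0.110, adjusted p = 0.532 by edgeR).

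In the mean CPM over libraries, 32 members followed the order cytoplasm, wash, nucleus from high to low. The wash held the highest mean of the depleted fractions for 7 members, the cytoplasm for the other 32, and the nucleus the lowest for 38. For 37 the mean of whole cells lay above that of the nucleus and below that of the cytoplasm. The 39 genes together took 0.577% ± 0.00948 (SD, n = 4) of all exon counts that fell outside rRNA genes in the cytoplasm, 0.435% ± 0.0606 in the wash, 0.419% ± 0.0323 in whole cells and 0.216% ± 0.00755 in the nucleus. In the undepleted wash it was 0.557% ± 0.0338 (n = 3). The nuclear libraries, at 0.207 to 0.224%, lay below those of every other group.

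Levels of different genes were compared per kilobase of merged exon length. ATP5F1B had the highest level in all 4 depleted groups, at 306.3 ± 11.3 CPM per kb in the cytoplasm (SD, n = 4) and 56.0 ± 4.61 in the nucleus. In the cytoplasm it was followed by COX6B1 (205 ± 28.2), ATP5F1C, the gamma subunit of the central shaft (145 ± 13.6), COX5B (122 ± 14.5) and COX7C (113 ± 34.9 CPM per kb). COX5B and COX7C, neighbours in that order, lay within 1 SD of each other. ATP5F1A, which joins ATP5F1B in equal number in the enzyme, was at 30.4 ± 4.07 CPM per kb of a merged exon length of 10908 bases, against 2322 for ATP5F1B. Merged exons take in every annotated isoform, so this level is understated for genes with long rare exons. The lowest cytoplasmic levels were those of UQCR11 (6.64), SDHC (5.18) and COX6A1 (5.14 CPM per kb). SDHA moved from rank 34 of the 39 in the cytoplasm to rank 12 in the wash and rank 8 in the nucleus. COX8A moved the other way, from 24 in the cytoplasm to 39 in the nucleus.

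Intron content was read from the gene-body counts outside exons, as a share of all gene-body counts, in 30 members with at least 20 gene-body counts in every depleted library. The other 9 could not be read this way. For SDHD, UQCR11, COX6A1, COX8A, ATP5PO and ATP5MF the gene-body count was below the exon count, and each overlaps another gene on the same strand. UQCRB and UQCRQ have merged exons that fill their whole span, and UQCR10 fell under the minimum. The median intron share of the 30 was 2.83% in the cytoplasm, 10.4% in the wash, 18.4% in whole cells and 53.8% in the nucleus. Over 8336 protein-coding genes read the same way the medians were 12.3, 28.0, 46.3 and 70.9%. The undepleted wash had a median of 5.03%, against 21.3% over coding genes. In 28 of the 30 the mean share rose from cytoplasm to wash to nucleus, and in 29 every nuclear library was above every cytoplasmic one. How often either held over the coding genes, whose medians rose in the same order, was not counted. CYC1, with a mean of 3.27% in the nucleus and 0% in each cytoplasmic library, was the member that overlapped, through a nuclear library that was also at 0.

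Genes differed widely in the nucleus. The share was 84.3% for UQCRH, a hinge subunit of complex III, 82.2% for ATP5MC2 and 81.0% for SDHB, but 8.74% for COX5B, 6.01% for ATP5MC1 and 5.90% for COX7C. Merged exons fill 10.7, 8.93 and 6.95% of the spans of the first 3, but 61.5, 84.2 and 65.2% of the last 3. Only the rest of a span can give counts outside exons, and how far this sets the share was not tested. SDHB was at 10.8, 9.10, 5.34 and 6.85% in the cytoplasm, 26.1, 37.4, 21.9 and 19.2% in the wash and 80.9, 83.1, 81.7 and 78.5% in the nucleus, with no overlap. ATP5F1B was at 0.749, 0.397, 0.685 and 0.571% in the cytoplasm, 1.73, 1.15, 0.766 and 0.872% in the wash and 24.8, 20.7, 22.7 and 28.0% in the nucleus. In 25 members every wash library was above every cytoplasmic one (not counted over coding genes). SDHA and UQCRC1 had a lower mean in the wash than in the cytoplasm. SDHA, which rose in the wash, was at 9.39, 9.75, 7.05 and 7.49% in the cytoplasm and 9.22, 8.03, 5.31 and 6.23% in the wash. UQCRC1, a core protein of complex III, was at 17.9, 15.9, 19.1 and 16.8% in the cytoplasm and 9.43, 9.48, 8.64 and 8.70% in the wash, with no overlap.

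**Figure D4:**
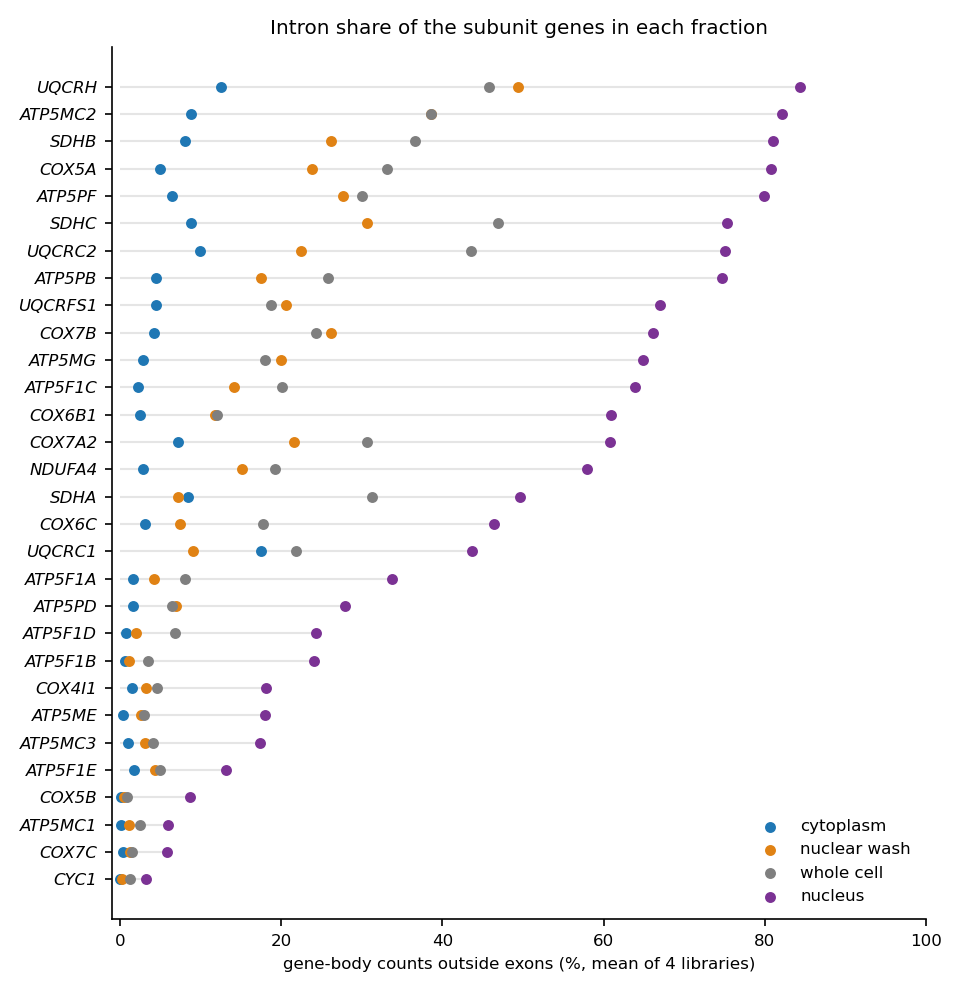
Share of gene-body counts outside exons for 30 subunit genes, as the mean of 4 libraries in each of cytoplasm, wash, whole cells and nucleus, ordered by the nuclear value. The nuclear share runs from 3.27% (CYC1) to 84.3% (UQCRH), and SDHA and UQCRC1 are the genes whose wash point lies left of the cytoplasmic one. Merged exons fill 79.0% of the span of CYC1 and 10.7% of that of UQCRH.

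Exon counts of the nuclear subunit genes were set against those of the mitochondrially encoded partners of the same complex, MT-CYB for complex III, MT-CO1, MT-CO2 and MT-CO3 for complex IV, and MT-ATP6 and MT-ATP8 for complex V. Within complex III there were 0.544 ± 0.119 nuclear counts per mitochondrial count in the cytoplasm (SD, n = 4), 0.438 ± 0.0565 in whole cells, 0.432 ± 0.112 in the nucleus and 0.147 ± 0.0059 in the wash. The wash libraries, at 0.141 to 0.154, lay below all others that were depleted, and the undepleted wash was at 0.129 to 0.190. Complex IV had 0.0791 ± 0.00815 in the cytoplasm, 0.108 ± 0.0277 in the nucleus and 0.050 ± 0.00444 in the wash, whose libraries again lay below the rest of the depleted ones. In complex V the wash (0.311 ± 0.0535) overlapped whole cells (0.365 ± 0.0333) and lay below cytoplasm (0.63 ± 0.189) and nucleus (0.697 ± 0.209). MT-CYB was higher in the wash than in the cytoplasm by 1.25 (adjusted p = 4.12e-05) and MT-CO1 by 0.68 (adjusted p = 0.00222, both by edgeR), and the other 4 passed in neither direction. Spike-in scaling turned both calls lower, as it called 93.3% of all genes. The call of MT-CO1 was lost with gene-body counts and within prefix 1. All 6 partners were lower in the nucleus than in the cytoplasm. Ratios of counts depend on gene length and on how reads of mitochondrial genes were assigned, so only their change between fractions is read.

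**Figure D5:**
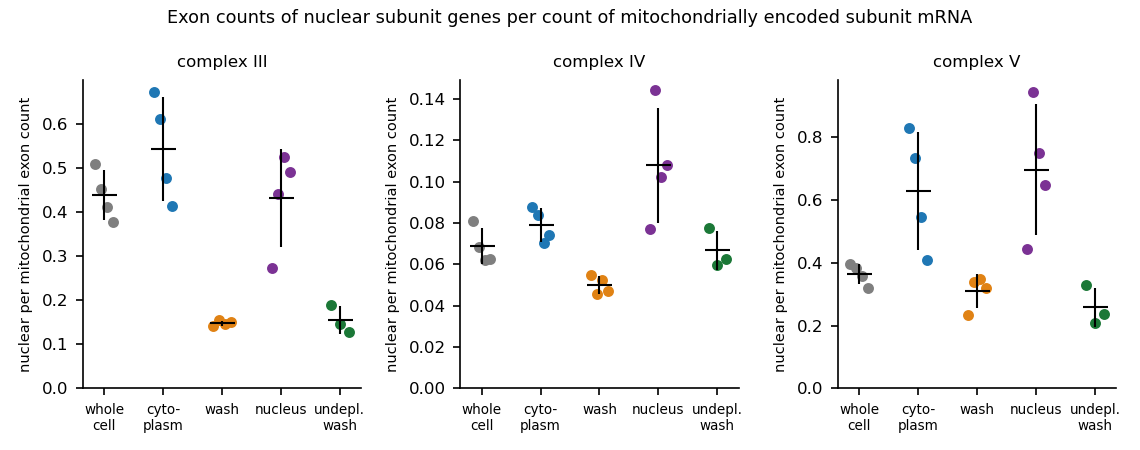
Exon counts of the nuclear subunit genes per exon count of mitochondrially encoded subunit mRNA in complexes III, IV and V, with points for libraries, a dash for the mean and a bar for the SD (4 libraries a group, 3 for the undepleted wash). In complex III the depleted wash libraries sit between 0.141 and 0.154, below every other depleted library.

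The nuclear wash prepared without rRNA depletion was compared with the depleted wash in a separate fit. Of the members, 11 were higher without depletion and 3 were lower (SDHC, SDHD and ATP5F1C), against 7.75% and 3.35% of 11627 genes tested. The median was 0.40 over the members and -0.04 over all genes. In 3 pairs a library of each preparation carries the same column prefix, and with these pairs as blocks 20 members were higher and 5 lower, against 16.5% and 15.7% of the 11744 genes tested in that fit. Without undepleted replicate 2 the counts were 6 and 1, against 395 and 73 of 13050 genes tested. Without undepleted replicate 3 they were also 6 and 1, against 397 and 62 of 13064. They were 5 and 8 without a composition factor (3.45% and 30.9% of all genes), and 4 and 1 with spike-in scaling (2.84% and 1.21%). The counts and the balance of directions thus varied with the scaling.

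ATP5PF, coupling factor 6 in the peripheral stalk of ATP synthase, was at 37.0, 17.2, 32.0 and 40.3 CPM in the 4 depleted wash libraries of this fit and at 146, 124 and 142 in the 3 undepleted ones (log2 fold change 2.12, SE 0.255, adjusted p = 0.000436 by edgeR). UQCRH was at 69.9, 32.9, 50.7 and 67.8 CPM with depletion and 162, 196 and 209 without (log2 fold change 1.78, SE 0.244, adjusted p = 0.00101 by edgeR). ATP5ME, the e subunit at the dimer interface, was at 33.7, 11.6, 19.1 and 26.2 CPM with depletion and 53.3, 73.6 and 77.4 without (log2 fold change 1.62, SE 0.310, adjusted p = 0.00758 by edgeR). The libraries of these 3 did not overlap. ATP5ME missed the threshold without undepleted replicate 3 (adjusted p = 0.051 by edgeR). SDHD was at 31.6, 36.4, 50.2 and 49.2 CPM with depletion against 17.0, 19.3 and 16.4 without (log2 fold change -1.25, SE 0.240, adjusted p = 0.00787 by edgeR). SDHC was at 36.5, 40.4, 41.3 and 40.3 against 24.9, 23.6 and 18.5 CPM (log2 fold change -0.82, SE 0.181, adjusted p = 0.0154 by edgeR), and ATP5F1C at 127, 136, 148 and 137 against 83.9, 90.0 and 91.6 CPM (log2 fold change -0.63, SE 0.151, adjusted p = 0.0228 by edgeR). All undepleted libraries lay below the depleted ones for these 3. The calls of SDHC and ATP5F1C were lost without undepleted replicate 2 or 3, and that of ATP5F1C also without undepleted replicate 1 or depleted replicate 3 or 4. Both were also lost with spike-in scaling (adjusted p = 0.0578 for SDHC and 0.0653 for ATP5F1C by edgeR), and that of ATP5F1C with gene-body counts (adjusted p = 0.0801 by edgeR). Across the 39 members the log2 fold change and the coding length had a Spearman rho of -0.41, and across 9841 coding genes tested -0.03. In the comparisons of depleted libraries the members had the weaker rho. It was 0.11 against 0.40 over coding genes for nucleus and cytoplasm, and 0.03 against 0.36 for wash and cytoplasm. For wash and nucleus it was -0.13 against -0.28, and for cytoplasm and whole cells -0.21 against -0.43. These values are across genes, which share the same libraries, and describe only the comparison named.

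Other genes of the pathway were counted in the same fits. Of 37 tested assembly factors of complexes II to V, 17 were lower and 10 higher in the nucleus than in the cytoplasm. These are 45.9% and 27%, against 37.5% and 39.3% of all genes tested, and their median was -0.42. COA6, a copper-handling factor of complex IV, fell by 2.73, whereas COX20, which stabilises the mitochondrially made COX2 protein, rose by 2.24, SDHAF2, which puts the flavin on SDHA, by 1.98 and SURF1 by 1.71 on the log2 scale (adjusted p = 8.38e-12, 2.2e-08, 2.6e-07 and 3.02e-06 by edgeR). In the wash 13 assembly factors were lower than in the cytoplasm and 2 higher (35.1% and 5.41%), against 21.4% and 22.8% of all genes tested. Among 7 tested isoforms and associated proteins, 6 were lower in the nucleus and 1 higher. They included CYCS, cytochrome c (fell by 2.09, adjusted p = 2.29e-10), and ATP5IF1, the inhibitor of ATP hydrolysis (fell by 2.04, adjusted p = 2.46e-11 by edgeR). Of 36 tested nuclear subunits of complex I, 23 were lower in the nucleus and 6 higher (63.9% and 16.7%). In the wash 14 were lower and 2 higher (38.9% and 5.56%). The members had 92.3% called lower in the nucleus, the complex I list 63.9%, the assembly factors 45.9% and all genes tested 37.5%, differences that were not tested.

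Exons of 21 members overlap those of another gene, 10 on the same strand and 15 on the opposite one, and 31 members have annotated pseudogenes, 133 in number. Reads of such genes could be lost or misassigned, depending on settings not given in the sources used here. Of the 18 members without overlap, 17 were lower and 1 higher in the nucleus than in the cytoplasm (median -1.97). Of the 21 with overlap, 19 were lower (-1.82) and COX6A1 and ATP5MF passed in neither direction. In the wash the counts of genes lower and higher than in the cytoplasm were 10 and 1 without overlap and 12 and 1 with it. After COX6A1 and SDHA, the highest pseudogene counts against those of the gene in the nucleus were 31.9% for ATP5PD, a stator subunit of ATP synthase, 27.7% for COX6C, a membrane subunit of complex IV, and 14.5% for SDHD.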

How the data were processed

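Stranded total RNA libraries of K562 fractions, with synthetic yeast RNA added, were sequenced, per the labels. The values are whole-number counts per gene, deposited by the authors as 1 table over exons and 1 over gene bodies, and made, per the submitters' processing notes, with cutadapt 2.5, with STAR 2.7.0a and, for counting, with featureCounts 1.6.2 on hg38. Which annotation release and strand setting they used is not given in the sources used here. Of 58051 human gene IDs, 57447 are in GENCODE 29, the source of positions, lengths and coding sequences.

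Exon counts were fitted with edgeR 4.0.16 (filterByExpr, TMM, quasi-likelihood test) in R 4.3.3, with 16 depleted libraries in 1 fit and 7 wash libraries in another. P-values were adjusted by Benjamini-Hochberg over all genes tested, and a call is an adjusted p under 0.05. CPM are exon counts relative to TMM-scaled library totals, so levels in the 2 fits differ. Ratios were tested exactly with scipy 1.17.1. The code was tested on simulated data. The members and lists were chosen with earlier results of these data known. For each comparison the 3 called members of largest fold change in each direction at a mean of at least 5 CPM were named, together with ATP5MC1, ATP5MC2, ATP5MC3, ATP5F1A, ATP5F1B, SDHA, SDHB, SDHC, SDHD, COX4I1, CYC1 and UQCRFS1. Other members were named after their values were seen, and list genes were taken from the called ones of largest fold change. Alternatives were DESeq2 1.42.0, RLE factors, no composition factor, spike-in library sizes, no low-count filter, gene-body counts, no mitochondrial or rRNA genes, a replicate block, either column prefix alone, and each library left out.

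Same-numbered libraries, which share a column prefix, deviated together in every pair: the correlations of their deviations from group means were 0.126 to 0.232 for nucleus and cytoplasm, 0.122 to 0.256 for wash and cytoplasm, 0.182 to 0.297 for wash and nucleus, and 0.104 to 0.282 for cytoplasm and whole cells. Differently numbered libraries ranged from -0.222 to 0.210, -0.296 to 0.326, -0.273 to 0.287 and -0.318 to 0.309 in the same order. These pooled ranges overlapped those of same-numbered libraries, but they split by the first digit of the prefix. Between replicates 1 and 2, or 3 and 4, which share that digit, every correlation was positive (0.132 to 0.210 for nucleus and cytoplasm). Between libraries of different digits every correlation was negative (-0.222 to -0.119 for nucleus and cytoplasm). Pairing entered only the replicate-block alternatives, and the main fits and main exact tests used the group alone. Same-prefix pairs of the 2 wash preparations had 0.465, 0.272 and 0.214.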

Additional observations from a re-analysis of the deposited data

Results flagged for a closer look

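Of 92 groups of 4 CPM values examined, 3 held a library far from the other 3, by a gap above Dixon's 95% critical value, which chance gives in about 1 group in 20. COX7C in cytoplasm replicate 4 was at 330.1 CPM, against 185.9 to 196.8 CPM in the other cytoplasmic libraries. SDHA in cytoplasm replicate 4 was at 150.5 CPM, against 126.3 to 129.9 CPM. COX5B in whole-cell replicate 3 was at 78.6 CPM, against 91.5 to 93.7 CPM.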

How the results depend on the processing

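With spike-in library sizes the median of all genes moved to -0.60 (nucleus against cytoplasm), -3.10 (wash against cytoplasm), -2.47 (wash against nucleus) and -1.24 (cytoplasm against whole cells), and the amount of spike-in per sample is not given in the sources used here. Under it 0 members were higher in these 4 comparisons, and the counts of members lower were 39 for wash against cytoplasm, 34 for wash against nucleus and 32 for cytoplasm against whole cells. Member medians became -1.14 for wash against nucleus and -0.62 for cytoplasm against whole cells. Of the genes followed singly in each comparison, those whose sign turned were SDHA (-0.34 in the nucleus and -2.02 in the wash against the cytoplasm, -1.68 in the wash against the nucleus), COX6A1 (-1.89), COX5B (-3.23), MT-CYB (-1.90) and MT-CO1 (-2.51) in the wash against the cytoplasm, COX6B1 (-0.13), COX5B (-0.15), SDHC (-2.16) and UQCR11 (-2.52) in the wash against the nucleus, and COX7C (-0.27), COX5B (-0.25) and UQCR10 (-0.16) in the cytoplasm against whole cells. SDHA in the nucleus, COX6B1 and COX5B against the nucleus and these last 3 did not pass the threshold with their new sign, and members not followed singly stand only in the counts. Without a composition factor the all-gene medians were 0.64, -0.01, -0.61 and -0.25 in the same order, 1 member was lower in the wash than in the nucleus and 1 in the cytoplasm than in whole cells, and UQCR11 (-0.66) and SDHC (-0.29) turned lower in the wash against the nucleus.

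SDHA, the 1 member higher in the nucleus, was called lower with gene-body counts (-0.34), and was not called without the low-count filter (0 higher), within prefix 2 or without cytoplasm replicate 1, 2 or 3, so that leaving out 1 library gave 0 to 1. Gene-body counts also gave SDHA a value of 0.34 in the cytoplasm against whole cells. Within prefix 2, 4 members were higher in the wash than in the cytoplasm, and within prefix 1 COX5B was at -0.57. Lower in the nucleus than in the cytoplasm were 31 to 38 members over all alternatives. The 31 came without a composition factor (23.5% of all genes lower) and the 38 with spike-in scaling (50.9%). SDHD, UQCR11, COX8A, ATP5PO and ATP5MF had 0 to 2 gene-body counts over all libraries, too few to be tested in that setting. Over the 4 comparisons of depleted libraries the replicate block changed no member's call beyond those given in the report. For the undepleted wash, 5 members were higher and 8 lower without a composition factor (median -0.10), 4 and 1 with spike-ins, and 20 and 5 with the replicate block by prefix. With gene-body counts 1 was lower, but SDHD, lower in the main fit, had too few such counts to be tested. Leaving out 1 library gave 6 to 11 higher and 1 to 3 lower.

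For the subunit c ratios, the replicate block left the differences of ATP5MC1 to ATP5MC2 at 1.13 (nucleus) and 0.89 (wash) and of ATP5MC1 to ATP5MC3 at 0.54 and 0.57, with p = 0.125 in the exact permutation test. Leaving out 1 library gave 0.86 to 1.30 and 0.64 to 1.07 for the first ratio, and 0.47 to 0.60 and 0.46 to 0.66 for the second, where 3 libraries against 4 cannot go below an exact p of 0.0571. With gene-body counts ATP5MC1 to ATP5MC2 was at -1.21 and 0.31, and ATP5MC2 to ATP5MC3 at 1.57 and 0.24. Apart from intron shares given for gene-body counts, the cause of these changes was not tested. Depth limits COX8A and UQCR10 in the nucleus and COX6A1 throughout.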
